A study of Homo sapiens with 4 samples.

Results

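CTGF, CYR61, ANKRD1 and AMOTL2 are textbook target genes of YAP, a transcriptional coactivator held in check by the kinases of the Hippo pathway. The peaks around these 4 genes were read from 3 deposited peak lists of chromatin immunoprecipitation followed by sequencing (ChIP-seq), an assay that maps where a protein sits on DNA. A peak was assigned to a gene when its centre lay within 50 kb of the gene body in the human genome build hg19. By this rule the 4 genes held 33 of the 48962 TEAD1 peaks, 0 of the 10118 peaks of the Avruch YAP antibody and 0 of the 2471 peaks of the Santa Cruz YAP antibody. Gene bodies were given in whole kb, so distances from a gene start are good to about 1 kb. The rule uses gene positions and no value of these lists, but the genes and settings were chosen with earlier results of these data known.

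All libraries came from the human cell line H69, which the published study used as an immortalised line of bile duct epithelium; the labels give only its name. No treatment, knockout or transgene is given, and the protocol gives fixation with 1% formaldehyde, lasting 10 min, followed by sonication to fragments near 250 bp. The 3 libraries used here were made with a YAP antibody that the design text calls Avruch (labelled only YAP), with a YAP antibody from Santa Cruz and with an antibody against TEAD1 (labelled TEAD). An IgG library belongs to the series and was not analysed here. There was 1 library per antibody and no replicate, so no difference below has a replicate check and no test was run. Read depth is unknown. Peak scores are those the authors deposited, and their unit is not stated. Scores began at about 50 in each list and are used only to rank peaks within the TEAD1 list or within a YAP list.

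YAP has no DNA-binding domain of its own. It is brought to DNA mainly by the TEAD transcription factors, which recognise the sequence GGAATG, and when the Hippo kinases phosphorylate YAP it is kept out of the nucleus. CTGF and CYR61, named CCN2 and CCN1 in current annotation, are secreted matrix-associated proteins of the same family. ANKRD1 is an ankyrin-repeat protein found in muscle sarcomeres and in nuclei. AMOTL2 is a scaffold of cell junctions whose family binds YAP and restrains it, so its induction by YAP is a form of negative feedback.

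The promoters are shown as the sequences available for these genes, and their choice did not depend on the peaks. They are RefSeq sequences of build GRCh38.p14, the 250 bases before the annotated start, written 5′ to 3′ on the strand of the gene. Capitals mark GGAATG on either strand (read as CATTCC on the opposite one) and the AP-1 motif TGANTCA, where N is any base. No genome of build hg19 was used, so these letters cannot be placed within the peaks base by base.
CTGF (chr6:131951373-131951622, minus strand): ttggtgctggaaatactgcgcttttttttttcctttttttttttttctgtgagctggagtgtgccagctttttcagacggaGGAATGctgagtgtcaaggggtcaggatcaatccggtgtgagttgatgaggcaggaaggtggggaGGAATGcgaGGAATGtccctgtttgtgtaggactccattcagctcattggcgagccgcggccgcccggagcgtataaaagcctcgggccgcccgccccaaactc
ANKRD1 (chr10:90921088-90921337, minus strand): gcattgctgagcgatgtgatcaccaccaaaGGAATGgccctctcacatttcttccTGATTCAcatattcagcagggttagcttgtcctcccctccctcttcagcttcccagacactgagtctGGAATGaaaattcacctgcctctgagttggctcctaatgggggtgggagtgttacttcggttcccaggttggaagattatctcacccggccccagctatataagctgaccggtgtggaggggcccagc
AMOTL2, upstream start (chr3:134375418-134375667, minus strand): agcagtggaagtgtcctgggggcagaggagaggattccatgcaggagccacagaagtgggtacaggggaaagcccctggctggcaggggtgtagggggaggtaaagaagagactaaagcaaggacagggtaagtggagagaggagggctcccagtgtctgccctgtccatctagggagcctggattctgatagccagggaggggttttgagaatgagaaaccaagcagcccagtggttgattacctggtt
AMOTL2, downstream start (chr3:134374448-134374697, minus strand): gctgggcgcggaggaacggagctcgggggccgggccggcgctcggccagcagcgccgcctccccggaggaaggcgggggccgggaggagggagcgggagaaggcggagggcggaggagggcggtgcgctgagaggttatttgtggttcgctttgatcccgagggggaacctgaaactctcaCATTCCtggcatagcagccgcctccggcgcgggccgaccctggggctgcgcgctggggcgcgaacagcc

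The CTGF promoter held 3 copies of GGAATG, beginning 169, 104 and 95 bases before the start. All lay on the strand of the gene, and the last pair were separated by 3 bases. Of the 35116 promoters in the RefSeq table cut to the same length, 29 (0.0826%) held 3 or more. The ANKRD1 promoter held 2 copies, beginning 220 and 128 bases before the start, a number reached by 0.940% of all promoters. It also held 1 match to the searched AP-1 pattern TGANTCA, with T in the place of N, beginning 195 bases before the start. At least 1 match to this pattern stood in 6.57% of all promoters. AMOTL2 has 2 annotated starts, 970 bases apart. The upstream promoter held neither motif, and the downstream one held CATTCC once, beginning 69 bases before the start. At least 1 TEAD motif stood in 11.9% of all promoters. No motif overlapped another. A match is a description of the letters and not evidence of binding. CYR61 had no entry in the table.

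A list of 20 other YAP and TEAD target genes was examined for the same motifs. Of these, 16 had a promoter in the table, and 5 of the 16 held a TEAD motif at 1 or more of their starts, against 14.3% of the 27305 genes of the table. They were NUAK2 with 2 copies and AXL, PTPN14, TGFB2 and AJUBA with 1. An AP-1 motif stood in 2 of the 16, F3 with 2 copies and LATS1 with 1, against 8.06% of genes. Peaks at these genes were not analysed here, because no annotation of build hg19 was used. The plan left these genes out in that case, so their motif search was an unplanned addition.

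A TEAD1 peak stood at the start of each of the 4 genes. The highest TEAD1 peak within 2 kb of the gene start scored 3039.45 at CTGF, 906.51 at AMOTL2, 568.21 at CYR61 and 421.02 at ANKRD1. Each lay among the top 2.50% of the TEAD1 list, which is the share of peaks that scored at least as high as the ANKRD1 start peak (1224 of 48962). Among neighbouring windows of 4 kb along the placed chromosomes, 5.72% held a TEAD1 peak. Those windows lie anywhere and not at gene starts, where peaks may be denser, so the share is only a rough background.

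The TEAD1 peak at the CTGF start stood near the very top of the list. It spanned chr6:132272198-132272901 in hg19 and was 704 bp wide. Its centre lay 0.5 kb past the gene start as given in whole kb, too close to place it inside or outside the gene. This peak ranked 26 in the TEAD1 list, and no other TEAD1 peak of chromosome 6, out of 2393, scored higher. Of the 25 peaks above it, 20 were at least 1 kb wide, so among the 48435 TEAD1 peaks under 1 kb wide it ranked 6.

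The other 4 TEAD1 peaks of the CTGF window scored 264.9 at 28.4 kb upstream of the gene start, 115.23 at 3.0 kb upstream, 167.65 at 13.3 kb past the start and 85.58 at 13.7 kb past it. Of the list, 4.95% scored higher than the best of these, beside 0.0511% for the start peak. A gap of 24.9 kb without a TEAD1 peak separated the 2 upstream peaks, and another of 12.3 kb lay between the start peak and those past the gene. In the RefSeq annotation the nearest protein-coding neighbours are ENPP1 and MOXD1, and the long noncoding RNA CCN2-AS1 overlaps the gene. Of windows of 104 kb along the chromosomes, 9.45% held at least as many TEAD1 peaks as the 5 at CTGF.

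CYR61, the close relative of CTGF, had 13 TEAD1 peaks in a window of the same length, a number reached by 0.636% of windows of 104 kb. They formed a pair of groups. The first lay at the gene itself, where 6 peaks stood within 8.27 kb, from chr1:86042132 to 86050401. In this group the start peak, at chr1:86046001-86046621, scored 568.21, and a peak at the end of the gene, 4.1 kb past the start, scored 334.66. A peak 1.8 kb upstream scored 192.26, while the remaining members of this group scored 80.71, 63.55 and 52.02. The start peak and the peak of 63.55 just upstream of it were only 20 bp apart, so these may be counted as 1 region.

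The highest TEAD1 peak near CYR61 was not at the gene start. It lay 27.1 kb past the start, beyond the gene end, at chr1:86072606-86073513, with a score of 1296.94 and a width of 908 bp, the widest of the 33. Of the TEAD1 list, 0.327% scored higher, beside 1.55% for the start peak. It opened the second group, 6 peaks over 22.9 kb, in which the others scored between 64.03 and 178.93. One further peak, 35.5 kb upstream, scored 68.61. The neighbouring protein-coding genes in the RefSeq annotation are DDAH1 and ZNHIT6, and peaks in the window may belong to them as well as to CYR61.

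ANKRD1 had the fewest TEAD1 peaks, but neither was weak. One spanned the gene start at chr10:92680787-92681398 and scored 421.02. The other lay 10.0 kb upstream, at chr10:92690702-92691352, and scored 578.2, and 1.48% of the list scored higher. They were 612 and 651 bp wide and 9.30 kb apart. By the bounds in whole kb, no TEAD1 peak was centred within the gene body or in the 50 kb past it. At least 2 TEAD1 peaks were found in 38.6% of windows of 110 kb, so the number of peaks at ANKRD1 was ordinary while their scores were high. The nearest protein-coding genes are RPP30 and PCGF5.

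AMOTL2 resembled CYR61, with 13 TEAD1 peaks, a number reached by 0.942% of windows of 120 kb. With peaks at gaps of at most 1 kb joined, there were 9 here and 9 at CYR61. The AMOTL2 start peak, at chr3:134093086-134093882, scored 906.51 and was 797 bp wide. Its centre lay 0.5 kb past the start as given in whole kb, too close to place it inside or outside the gene. A further 3 peaks lay inside the gene body, scoring 364.45 at 17.1 kb past the start, 190.99 at 10.9 kb and 55.77 at 1.8 kb. These 4 peaks made a run of 17.3 kb. A single peak upstream, at 22.2 kb, scored 296.67.

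The highest peak of the AMOTL2 window again stood past the gene. It lay 48.0 kb from the start at chr3:134045643-134046305 and scored 1042.5. Of the list, 0.462% scored higher, beside 0.600% for the start peak. It belonged to a run of 8 TEAD1 peaks over 23.3 kb in which the others scored between 72.1 and 276.47. The run ended 23.4 kb from the gene body, and 26.0 kb without a peak lay between it and the first peak inside the gene. The nearest protein-coding neighbours are RYK and ANAPC13, and the microRNA gene MIR6827 overlaps AMOTL2. Long noncoding RNA genes (LINC02004 and LOC105374118) and pseudogenes are also annotated within 50 kb. Peaks in the window may belong to other genes as well as to AMOTL2.

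**Figure D1:**
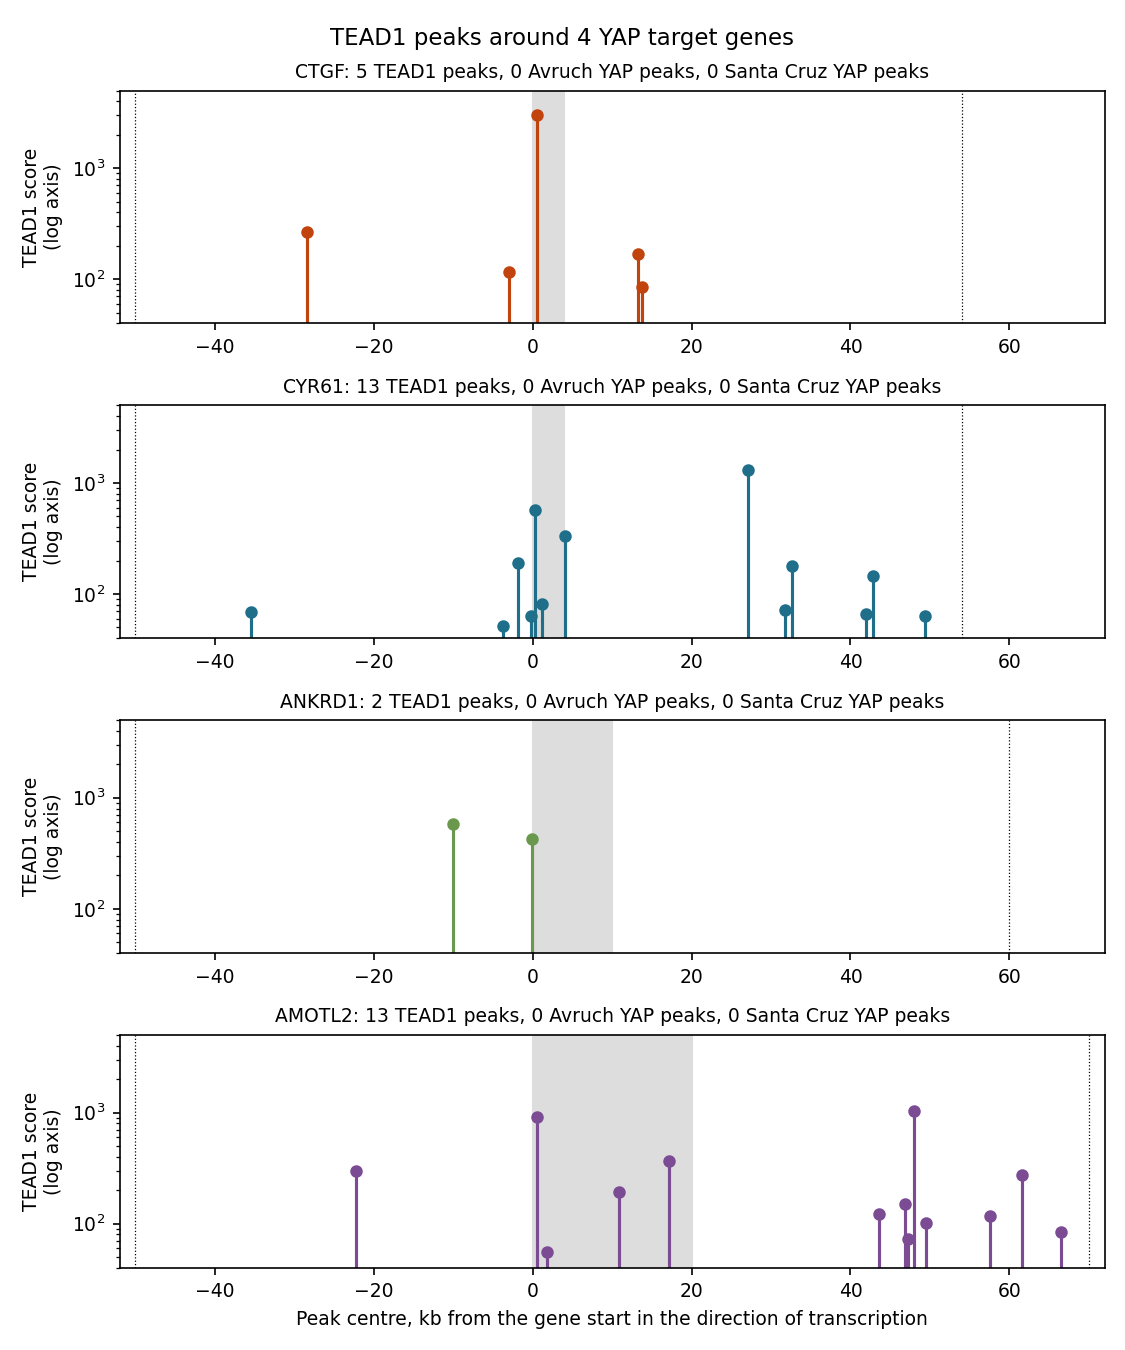
TEAD1 peaks around CTGF, CYR61, ANKRD1 and AMOTL2, 1 panel per gene. The x axis gives the peak centre in kb from the gene start in the direction of transcription, the y axis the TEAD1 score on a log axis, the grey band the gene body and the dotted lines the limits of the window, 50 kb from the body. Every gene has a peak at its start, the one at CTGF reaching 3039.45, and at CYR61 and AMOTL2 the highest peak stands past the gene.

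As a group the 33 TEAD1 peaks scored above the list they came from. Their median score was 150, with a range of 52.02 to 3039.45, against a median of 67.1 for the whole list. Of the 33, 16 (48.5%) were in the top 10% of the list by score, beside 10.0% of the whole list by definition. By gene, the top 10% took in 3 of 5 peaks at CTGF, 5 of 13 at CYR61, both at ANKRD1 and 6 of 13 at AMOTL2. High and low scores stood side by side in a window: at CYR61 the lowest peak, 52.02, was outscored by 94.8% of the list. The 17 peaks not singled out by position or by being among the 3 highest of their window scored between 52.02 and 296.67, with a median of 101.

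The peaks of these genes were also wider than most. Their median width was 448 bp, with a range of 236 to 908 bp, against 274 bp for the list, and 31 of the 33 were wider than the list's median. None reached 1 kb. Here too 4 places, not 33 independent peaks, stand behind the values. Score and width went together across the 33 peaks (Spearman's rho 0.80), as they did across the whole list (0.66). Both values come from the same reads of 1 library, so the correlation is a description only.

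**Figure D2:**
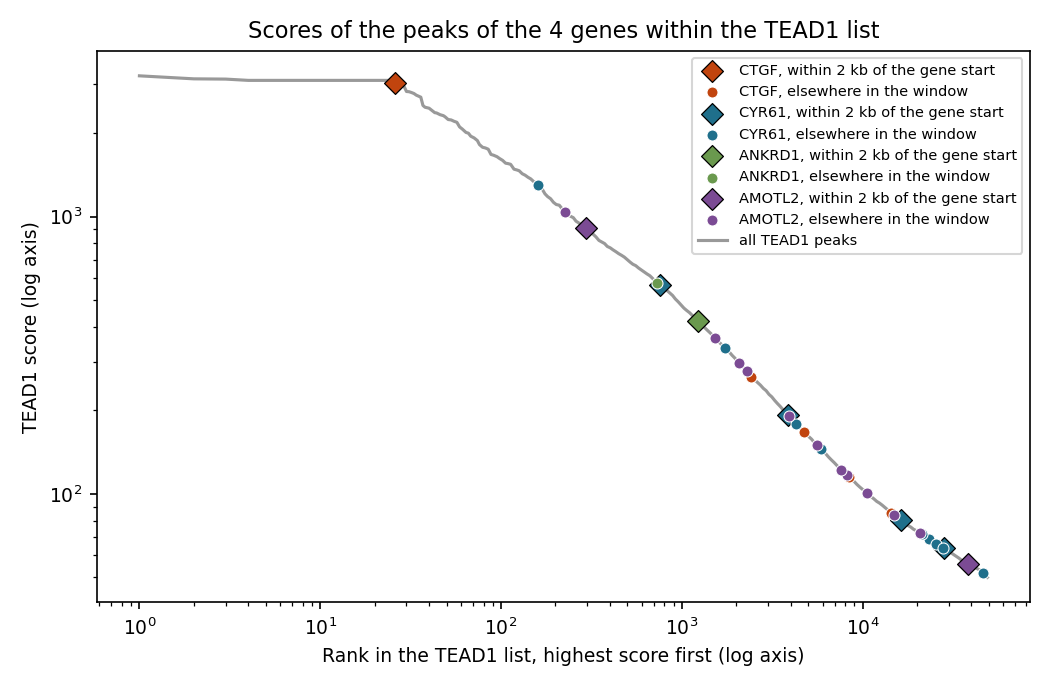
Score of each TEAD1 peak against its rank in the TEAD1 list, both on log axes. The grey line is the whole list of 48962 peaks, diamonds are peaks within 2 kb of a gene start and circles are the other peaks of the windows; the CTGF start peak is at rank 26, and the lowest of the 33 peaks, at CYR61, scored 52.02.

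Of the peaks, 9 lay upstream of a gene start, 7 within a gene body and 17 past a gene end. The balance differed from gene to gene. CTGF had 2 upstream, 1 inside and 2 past the end, and ANKRD1 had both upstream. CYR61 had 4, 2 and 7, and AMOTL2 had 1, 4 and 8. With gene bounds in whole kb, peaks at a gene's edge could fall on either side, among them the start peaks of all 4 genes. The ANKRD1 start peak was counted as upstream by 0.1 kb. Those of CTGF and AMOTL2 were counted as inside by 0.5 kb, and that of CYR61 by 0.3 kb.

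Neither YAP antibody gave a peak within 50 kb of any of the 4 genes. The nearest YAP peak lay 68.3 kb from any of the 33 TEAD1 peaks, so their lack of overlap restates this absence. It is not a separate observation. None of the 33 overlapped a YAP peak by 1 bp or more. In the whole TEAD1 list 3.59% of peaks did (1759 of 48962), a share that would give 1.19 peaks in 33, so the absence of overlap at the level of single peaks was close to the background. Of the TEAD1 peaks that scored at least 421.02, the score of the ANKRD1 start peak, 15.9% overlapped a YAP peak. Among those under 1 kb wide the share was 2.76% (28 of 1013). All 7 peaks of the 4 genes in this class were under 1 kb wide. None overlapped a YAP peak, which follows from the same distance and adds nothing to the absence of YAP peaks near the genes.

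Whole windows were also compared. Of 27342 neighbouring windows of 110 kb, the mean length of the 4 gene windows to the nearest 10 kb, 63.6% held a TEAD1 peak, 23.3% an Avruch peak and 5.95% a Santa Cruz peak. A YAP peak of either antibody was found in 26.5% of all windows and in 33.5% of those with a TEAD1 peak. The share was higher where TEAD1 peaks were many. It was 29.7% in the 3922 windows with exactly 2 TEAD1 peaks, the number at ANKRD1, and 45.2% in the 904 windows with exactly 5, the number at CTGF, so most windows like these held none. It was 54.9% in the 2821 windows with 5 or more, and 77.9% in the 204 windows with 13 or more, the number at CYR61 and AMOTL2. Of the 54 windows with exactly 13, 39 held a YAP peak. With windows that held a peak of 1 kb or wider in any list left out, the shares with 5 or more and with 13 or more were 53.1% of 2670 and 71.3% of 150. CYR61 and AMOTL2 were therefore among the minority of windows dense in TEAD1 peaks that held no YAP peak. With 4 genes and 1 library per antibody, no test of this difference was made. A YAP peak missing from a list means only that the signal did not pass the authors' threshold in that library, and how far read depth or antibody set this was not tested.

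**Figure D3:**
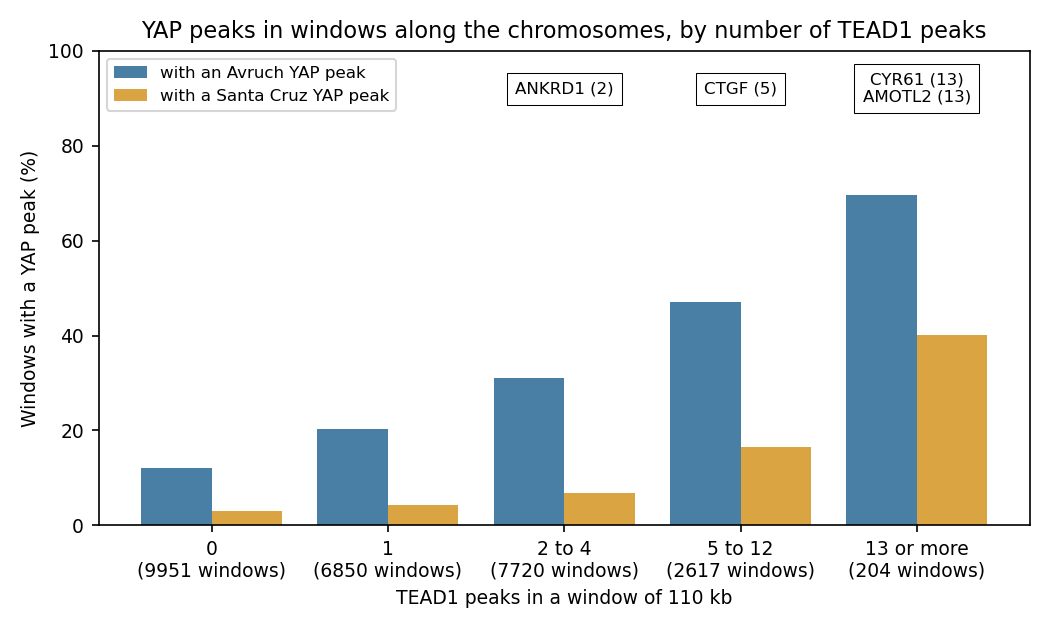
Share of windows of 110 kb that held a YAP peak (y axis, percent), by the number of TEAD1 peaks in the window (x axis), for the Avruch and the Santa Cruz antibody. Boxes name the genes whose windows hold that number of TEAD1 peaks, and all 4 gene windows held 0 YAP peaks. With 13 or more TEAD1 peaks (CYR61 and AMOTL2), 69.6% of windows held an Avruch peak and 40.2% a Santa Cruz peak. The shares were 47.0% and 16.5% with 5 to 12 (CTGF), and 31.1% and 6.88% with 2 to 4 (ANKRD1).

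For the Avruch antibody the nearest peak was 91.6 kb from the AMOTL2 body, 97.0 kb from CTGF, 164 kb from CYR61 and 470 kb from ANKRD1. The Avruch peak nearest to CTGF (chr6:132369951-132370034) was 84 bp wide and scored 76.98, and the one nearest to AMOTL2 (chr3:134185608-134185761) scored 82.75. The one nearest to CYR61 (chr1:86214408-86214620) scored 134.81, which 5.13% of the Avruch list exceeded, and the one nearest to ANKRD1 scored 59.56. None of these 4 overlapped a TEAD1 peak, beside 19.4% of the Avruch list that did, so none in 4 was ordinary. For the Santa Cruz antibody the nearest peak was 124 kb from CYR61, 832 kb from ANKRD1, 1050 kb from AMOTL2 and 1195 kb from CTGF. These peaks scored between 51.37 and 59.39, in a list with a median of 59.2, and none overlapped a TEAD1 peak, beside 30.9% of the Santa Cruz list that did.

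Measured from the TEAD1 peaks, the distance to the nearest Avruch peak had a median of 138 kb over the 33 peaks (range 68.3 to 489 kb) and of 81.0 kb over the 48688 TEAD1 peaks of placed chromosomes. For Santa Cruz the medians were 1008 kb and 449 kb. Distances of at least 68.3 kb to an Avruch peak were found for 54.5% of all TEAD1 peaks, and distances of at least 78.6 kb to a Santa Cruz peak, the lowest among the 33, for 82.4%. The peaks nearest to an Avruch peak at AMOTL2 and CYR61 were matched or exceeded in distance by 54.1% and 39.3% of the list. ANKRD1 stood further out, since 7.77% of the list lay at least as far from an Avruch peak as the nearer of its peaks, at 479 kb. For Santa Cruz the shares were 24.2% at CTGF, 28.2% at AMOTL2, 33.8% at ANKRD1 and 82.4% at CYR61. All these shares set the nearest of several peaks against single TEAD1 peaks. The nearest of many peaks tends to be closer than a single one. The shares therefore make genes with many peaks look more ordinary, and they are not comparable between genes. Peaks of 1 gene share a neighbourhood and are not independent, so 4 places, not 33, stand behind these medians.

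**Figure D4:**
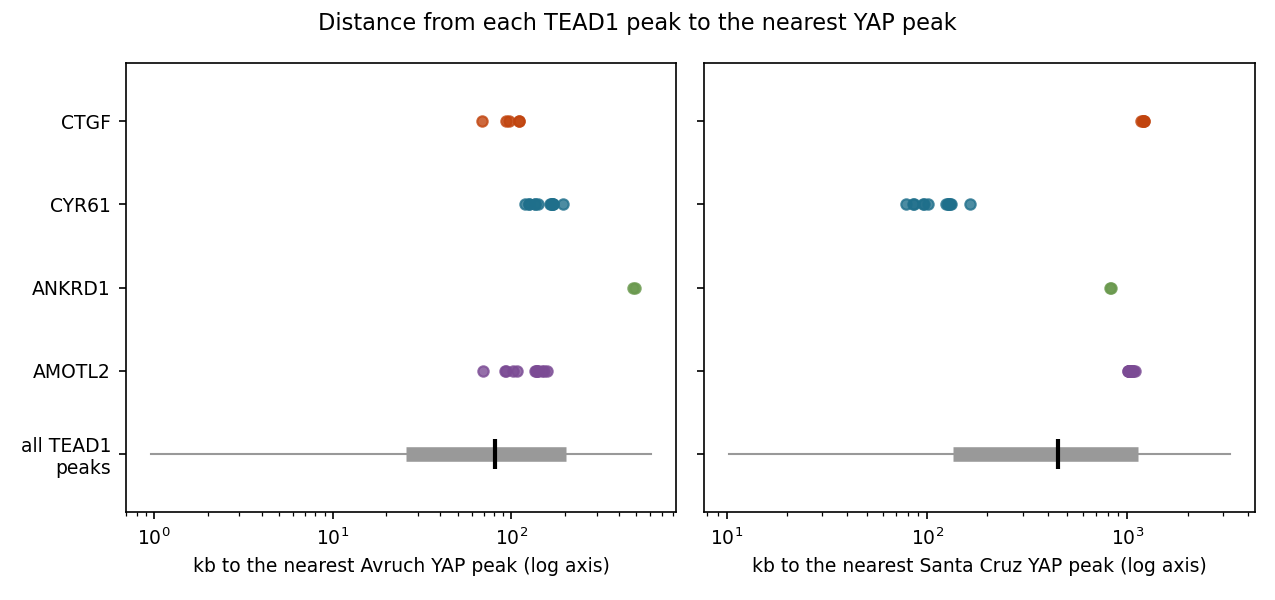
Distance in kb from each TEAD1 peak of the 4 genes to the nearest YAP peak on a log axis, for the Avruch antibody on the left and the Santa Cruz antibody on the right. Each point is a TEAD1 peak; in the bottom row the thick bar spans the middle 50% of all TEAD1 peaks, the thin line runs from the 5th to the 95th percentile and the black mark is the median, 81.0 kb for Avruch and 449 kb for Santa Cruz.

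The edge of the window fell in different surroundings at each gene. The outermost TEAD1 peak inside it was 45.4 kb from the CYR61 body with a score of 64.03, and the first outside was at 52.9 kb with 147.89. At AMOTL2 the outermost inside was at 46.5 kb with 83.77 and the first outside at 52.4 kb with 309.57. At CTGF these were at 28.4 kb with 264.9 and at 60.3 kb with 64.07. At ANKRD1 they were at 10.0 kb with 578.2 and at 66.6 kb with 64.66.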

How the data were processed

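ChIP-seq of H69 cells with 3 antibodies was used in the form of the peak tables of 5 unnamed columns that the authors deposited for the libraries. The submitters' processing notes name the aligner Bowtie2 and the build hg19. Peak names begin with MACS, a peak caller; its version, settings and control library are not given in the sources used. The last column is the score deposited by the authors, with no stated unit. No peak number was missing from any list. Starts were counted from 1.

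Peaks were assigned to genes by their centres, with the 50 kb limit and gene bounds in whole kb that define the loci. Peaks were shared where they had 1 bp or more in common. Runs were at least 3 TEAD1 peaks with gaps of at most 10 kb. Backgrounds were all peaks of a list, or neighbouring windows between the first and last peak of each placed chromosome, assembly gaps included. Overlap, window and joining functions were checked on simulated peaks with known answers. Named peaks were every YAP peak, every TEAD1 peak in a gene body or within 2 kb of a start, and the 3 highest of each locus; other peaks given in the text were picked after their values were seen. Promoters were RefSeq sequences of GRCh38.p14, used for letters and neighbour names only. Python 3.11.15 with pandas 2.3.3 was used. The genes, lists and settings were chosen with earlier results of these data known. Windows without wide peaks and the 200 kb limit were added after the values had been seen. The motif search in other YAP and TEAD target genes was not planned either.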

Additional observations from a re-analysis of the deposited data

How the results depend on the processing

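The 0 counts of YAP peaks and of shared TEAD1 peaks were also 0 with the 50% of peaks that scored highest, with equal numbers of peaks from each list, with neighbouring peaks joined and within 10 kb of the gene bodies. The count of shared TEAD1 peaks was also 0 with an overlap of 50% of both peaks, with windows of 200 bp and within 100 kb. Shorter lists, a smaller limit and a stricter overlap can only keep a count of 0, so those settings were no check of it. Joining and windows of 200 bp could hardly change it, as the nearest YAP peak lay 68.3 kb from any of the 33 TEAD1 peaks. Only the wider limits could readily raise these counts. Within 100 kb there were 2 Avruch peaks, 1 at CTGF and 1 at AMOTL2, so 2 loci had a YAP peak, and no Santa Cruz peak. Within 200 kb, added after the values had been seen, there were 56 TEAD1, 6 Avruch and 1 Santa Cruz peaks, 3 loci with a YAP peak, and 1 TEAD1 peak that overlapped one, beside 3.59% of the whole list. Shares of windows as long as these wider limits were not computed. The counts of 2 and 3 loci with a YAP peak therefore have no background beside them. The 33 TEAD1 peaks numbered 15 within 10 kb, 42 within 100 kb, 28 with the 50% of peaks that scored highest and 24 with gaps of at most 1 kb joined. Joined peaks numbered 4 at CTGF, 9 at CYR61, 2 at ANKRD1 and 9 at AMOTL2. Shares of windows were not computed for joined peaks. When each list was cut to its 2471 highest scores the TEAD1 peaks numbered 12, of which 2 were at CTGF, 3 at CYR61, 2 at ANKRD1 and 5 at AMOTL2. The changes with distance or with list length follow from the size of the window or the list. No paired analysis was possible because each antibody has 1 library, and for the same reason no replicate could be left out. Depth is unknown, so a peak missing from a list does not show that the protein was absent.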

Other observations

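Within 200 kb of the 4 gene bodies, a limit chosen after none was found within 50 kb, there were 6 Avruch peaks and 1 Santa Cruz peak. Of these 7, 1 overlapped a TEAD1 peak, beside 19.4% of the Avruch and 30.9% of the Santa Cruz list. It lay 169 kb from CYR61 at chr1:86218746-86218864 in hg19 and had an Avruch score of 58.64, and the TEAD1 peak it overlapped scored 63.66. Both values were below the medians of their lists, 63.8 for Avruch and 67.1 for TEAD1. The 2 Avruch peaks within 200 kb of CTGF lay 35.8 and 13.4 kb from the nearest TEAD1 peak, which scored 334.98.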
